A study of Homo sapiens with 3 samples.

Results

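Wild-type BRAF was overexpressed in DU145 cells, and the RNA of these cells was set against that of cells labelled P-Enter, the negative control. DU145 is an established human prostate cancer line. The genes described are the protein-coding genes with a mean of at least 5 FPKM over the WT and P-Enter libraries (FPKM: counted fragments scaled by exon length and by the depth of the library). They number 6116 of the 23379 genes in the files, of which 14117 are protein-coding. The groups hold 1 library each: P-Enter (DU145 negative control cells, taken as carrying the empty vector), WT (DU145 cells overexpressing wild-type BRAF) and L597R (DU145 cells transfected with plasmids for the BRAF mutant L597R), and the last is given only beside named genes. The labels give no culture time, plasmid dose or selection, and they do not say whether a clone or a pool of cells was used. With 1 library a side there is no replicate check on any value below, and no difference was tested.

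BRAF is a serine/threonine kinase of the RAF family. Active RAS proteins recruit RAF kinases to the plasma membrane, RAF phosphorylates the kinases MEK1 and MEK2, and these phosphorylate the ERK kinases, which drive the transcription of growth genes and of the pathway's own inhibitors. Wild-type BRAF depends on RAS for its activation and works as a dimer with another RAF molecule, whereas mutants of the activation segment can signal with less input from RAS.

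The libraries held 13294004 counted reads for P-Enter, 15665132 for WT and 16603676 for L597R, totals that follow from the values themselves, since a gene's FPKM is a whole number of reads divided by its length and the total. Whole reads were recovered in all 3 libraries for 6102 of the 6116 genes. Mitochondrially encoded transcripts held 2.01% of the reads in P-Enter and 2.01% in WT. A list of 8 basal and cultured epithelial markers had like summed levels, 98.1 FPKM in P-Enter and 100.3 in WT. Of the 8, 6 are among the genes in the files, and 3 reached 1 FPKM. These were KRT18 (34.3 and 36.6 FPKM), EGFR (34.1 and 35.8 FPKM) and KRT7 (28.9 and 27.2 FPKM). KRT8 was under 1 FPKM in both libraries (0.623 and 0.584), as were KRT14 (0.067 and 0) and KRT19 (0.097 and 0). KRT5 and TP63 are not among the genes in the files. Of the luminal prostate markers, STEAP2 was at 1.02 and 1.30 FPKM, and KLK3 was not analysed here. No fibroblast, leukocyte or endothelial marker reached 1 FPKM in either library.

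The transfected gene was higher in the library labelled WT. BRAF stood at 1.65 FPKM in P-Enter against 4.41 in WT and 9.59 in L597R (514, 1617 and 3733 reads). The level in WT was above that in P-Enter and below that in L597R. The WT to P-Enter ratio of reads, scaled by the library totals, was 2.67 (95% exact binomial interval 2.42 to 2.95). Such intervals cover counting error only, and reads copied by PCR are not independent molecules. On the log2(FPKM + 1) scale, used for every difference below and always as WT minus P-Enter, BRAF differed by 1.03. Plasmid and chromosomal BRAF transcripts are not separated in these files, and the mean of 3.03 FPKM leaves BRAF outside the 6116 genes. BRAF lies at chr7:140719327-140924928 (GRCh38, minus strand, 26 exon blocks). Its neighbours were level: ADCK2, 23066 bases away, was at 14.8 FPKM in both libraries, and NDUFB2, whose exons share bases with 5.29% of those of BRAF on the opposite strand, was at 3.67 and 3.65 FPKM. The paralog ARAF was level too, at 19.0 FPKM in P-Enter and 19.1 in WT (interval of the read ratio 0.915 to 1.10).

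Apart from BRAF, most of the transcriptome differed little. The differences of the 6116 genes had a median of -0.005 and an SD of 0.12, and 96.8% of the genes lay within 1.2-fold. The middle 90% lay between -0.17 and 0.21. A size rule of 1.5-fold, a difference of at least log2 of 1.5 in either direction, was passed by 1 gene higher in WT (0.0164%) and by 8 genes lower in WT (0.131%). At 1.2-fold the counts were 114 higher (1.86%) and 79 lower (1.29%). With counting error alone, the interval of the read ratio lay above 1 for 1031 of 6102 genes (16.9%) and below 1 for 899 (14.7%). Of 4 classes of genes by reads over both libraries, the class with most, 4160 to 478475, had an SD of the log2 read ratio of 0.09 against a median counting error of 0.03. The class with fewest, 49 to 1265, had an SD of 0.18 against 0.10. Intervals are thus narrower in genes with more reads, and the shares of intervals given for lists below are not matched for depth. The spread between these libraries was therefore wider than counting error at every depth, and how much of it separate cultures of 1 condition would show was not measured.

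**Figure D1:**
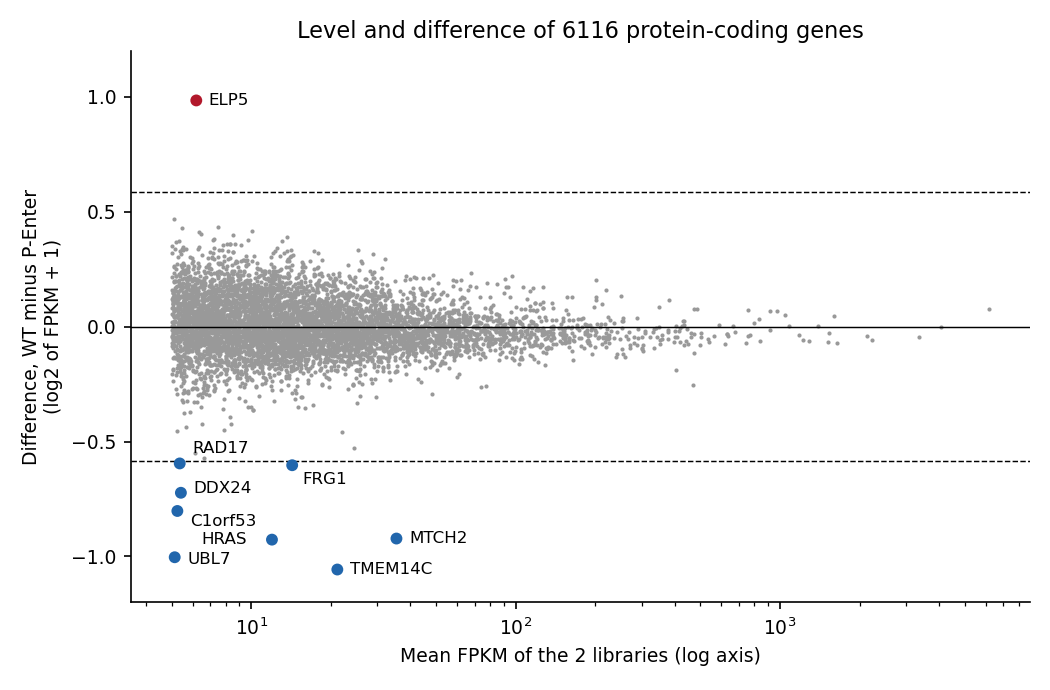
Each point is 1 of 6116 protein-coding genes, by its mean FPKM over WT and P-Enter (x, log axis) and its difference in log2(FPKM + 1), WT minus P-Enter (y). Dashed lines mark 1.5-fold. ELP5 alone lies above the upper line, and 8 labelled genes lie below the lower one.

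The level limit of 5 FPKM divides genes of like values. RRAGD, with a mean of 4.9996 FPKM, lay just outside it at 5.14 and 4.86 FPKM, and SMPD2, with a mean of 5.003, just inside it at 5.09 and 4.91 FPKM. In the band from 1 to under 5 FPKM, 7 of 3227 genes were past 1.5-fold higher and 21 past it lower.

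The differences followed the GC content of the transcripts. Exonic GC content, the share of G and C among the bases of all annotated exons of a gene, had a median of 47.9%. The genes were divided into 10 classes of like size by GC content. In the class with the lowest, 32.0% to 38.9%, the median difference was 0.12 and 87.1% of 612 genes were higher in WT. The medians of the next classes were 0.10, 0.05, 0.01 and -0.02, and the upper 5 classes, from 47.9% GC upward, had medians between -0.05 and -0.04 with 28.2% to 30.7% of genes higher. The trend was thus a slope over the AT-rich genes and flat over the GC-rich ones. Across the 6116 genes the Spearman correlation of the difference with exonic GC was -0.48. Among genes below the median GC it was -0.44 and among the others -0.04. These are descriptions across genes of 2 libraries, and genes are not independent replicates.

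The trend went with the GC content of the exons and hardly with that of the promoter. The GC content of introns and of the wider region was not measured. Promoter GC content, over 250 bases before and 50 after the start, correlated with the difference at -0.04 over the 5159 genes with a RefSeq promoter, although promoter and exonic GC correlated at 0.21. The trend was there on both sides of the median level: the lowest GC class had a median of 0.13 among genes under 14.2 FPKM and 0.11 among genes above, against -0.05 and -0.05 for the highest class. By exon length, the lowest class had medians of 0.10 among shorter and 0.13 among longer genes, against -0.04 and -0.06. Chromosomes followed the exonic GC content of their genes. Chromosome 19, whose 408 genes had a median exonic GC of 59.7%, had the lowest median difference, -0.04, and chromosome 13, with 78 genes and a median GC of 42.3%, the highest, 0.06.

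Stretches of coding sequence give examples from each end of the trend, which itself was measured over all exons. They are the central 90 coding bases (GRCh38, GENCODE 29 transcripts, 5′ to 3′, G and C in capitals) from the longest annotated coding sequence of the most deeply read genes past 1.2-fold, first from the lowest GC class among genes higher in WT and then from the highest among genes lower in WT.
SLC7A11: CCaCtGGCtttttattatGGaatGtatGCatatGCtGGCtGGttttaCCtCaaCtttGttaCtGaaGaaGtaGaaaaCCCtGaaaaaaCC
GMFB: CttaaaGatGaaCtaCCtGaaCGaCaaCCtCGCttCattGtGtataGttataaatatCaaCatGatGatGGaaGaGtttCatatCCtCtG
SBNO2: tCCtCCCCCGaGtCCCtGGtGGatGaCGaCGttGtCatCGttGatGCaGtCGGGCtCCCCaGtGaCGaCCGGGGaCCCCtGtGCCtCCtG
RIN1: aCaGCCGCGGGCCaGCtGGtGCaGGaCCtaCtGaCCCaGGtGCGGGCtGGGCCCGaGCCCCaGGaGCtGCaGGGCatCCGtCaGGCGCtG
The stretch of SLC7A11, the cystine importer, holds 37.8% G and C, and its transcript stood at 22.3 FPKM in P-Enter and 28.4 in WT. In GMFB, glia maturation factor beta, the share was 35.6% and the levels 14.96 and 18.4 FPKM. SBNO2, a transcriptional coregulator, had 65.6% with levels of 11.9 and 9.45 FPKM, and RIN1, an effector that binds active RAS, 73.3% with 7.53 and 5.95 FPKM. A stretch can differ from its gene. Over all exons and over the whole coding sequence, SLC7A11 had 35.4% and 45.4% and GMFB 35.4% and 39.0%. SBNO2 had 66.6% and 66.7%, and RIN1 61.9% and 67.6%. The genes lie at chr4:138164097-138242349 (minus strand, SLC7A11), chr14:54474484-54489196 (minus strand, GMFB), chr19:1107636-1174283 (minus strand, SBNO2) and chr11:66330242-66336840 (minus strand, RIN1).

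Since base composition ran through the whole comparison, each pattern below is also given as a residual: what is left of the difference after a regression over all 6116 genes on exonic GC, log exon length and log mean FPKM, with cubic terms. The regression removed 24.9% of the variance and left a residual SD of 0.10. All 8 genes past 1.5-fold lower remained past it by their residual, among 9 that did so, and ELP5 remained the 1 gene past it higher. Of the 114 genes past 1.2-fold higher only 41 remained past it by their residual, and of the 79 lower 46. The 114 higher genes had a median GC content of 40.02%, and 85 of them came from the 3 lowest GC classes. The 79 lower genes had a median of 53.03%, and 61 came from the upper 5 classes. The list of moderately higher genes was thus mostly a list of AT-rich genes, while of the 9 genes past 1.5-fold 2 came from the 3 lowest classes.

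**Figure D2:**
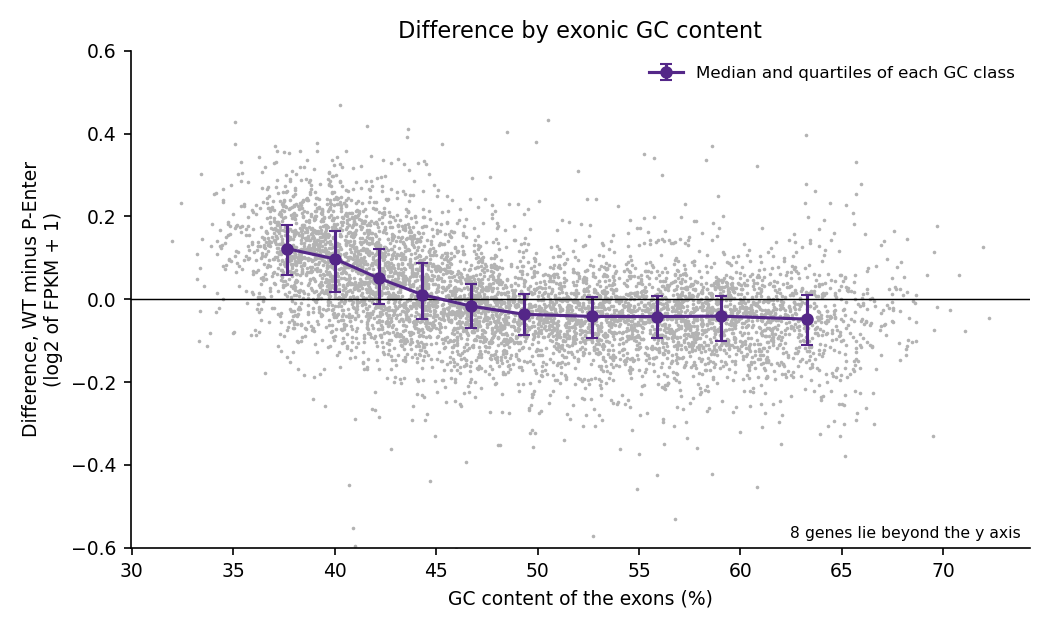
Each grey point is 1 gene, by the GC content of its exons in percent (x) and its difference in log2(FPKM + 1), WT minus P-Enter (y). Purple points are the median of each GC class, with bars from the lower to the upper quartile. The medians go from 0.12 in the lowest class to -0.05 in the highest and are flat above 47.9% GC.

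ELP5 was the gene past 1.5-fold higher in WT. It encodes a subunit of Elongator, the complex that modifies the wobble uridine of certain tRNAs. ELP5 stood at 3.83 FPKM in P-Enter against 8.56 in WT and 2.79 in L597R (141, 371 and 128 reads). WT was the high library. L597R lay below P-Enter, with a read ratio to P-Enter of 0.727 (interval 0.568 to 0.930). The difference was 0.98 (residual 1.04), and the read ratio was 2.23 (interval 1.83 to 2.73). The other Elongator genes above 5 FPKM were near level, with ELP2 at 6.80 and 7.08 FPKM, ELP3 at 6.84 and 7.14, and ELP6 at 19.5 and 18.1. ELP5 lies at chr17:7251416-7259940 on the plus strand, and 11.99% of its exonic bases lie over exons of CTDNEP1 or CLDN7 on the opposite strand. The library kit keeps the strand, per the labels' protocols, but whether the counting used it is not given in the sources used here, so reads of such overlaps cannot be assigned with certainty. CTDNEP1, a phosphatase of the nuclear envelope, stood at 11.4 FPKM in P-Enter and 11.7 in WT, a difference of 0.04.

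ELP5 and CTDNEP1 start head to head, 448 bases apart in RefSeq, so a single stretch lies upstream of a gene past 1.5-fold and of one that was level. The 250 bases before each start (RefSeq, GRCh38.p14) show that they share 53 bases, and that the shared stretch holds the cAMP response element TGACGTCA, in capitals.
ELP5: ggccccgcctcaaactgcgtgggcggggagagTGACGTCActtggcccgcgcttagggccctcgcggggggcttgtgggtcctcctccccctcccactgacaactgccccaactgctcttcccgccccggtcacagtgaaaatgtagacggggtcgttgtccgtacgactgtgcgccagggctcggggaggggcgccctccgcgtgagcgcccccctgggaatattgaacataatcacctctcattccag
CTDNEP1: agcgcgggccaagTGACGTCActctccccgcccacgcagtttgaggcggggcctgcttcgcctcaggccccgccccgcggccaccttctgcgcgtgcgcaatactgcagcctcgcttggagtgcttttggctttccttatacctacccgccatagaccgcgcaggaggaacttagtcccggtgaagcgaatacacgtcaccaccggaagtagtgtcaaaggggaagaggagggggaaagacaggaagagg
The windows are chr17:7252176-7252425 for ELP5 (plus strand) and chr17:7251979-7252228 for CTDNEP1 (minus strand). On both strands and over 300 bases, this element is in 1.98% of the 27305 promoters of the table and in 3.86% of the 5159 found for the genes described here. A match is a run of letters and does not show that a factor binds there.

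The 8 genes past 1.5-fold lower in WT have varied roles. TMEM14C, a protein of the inner mitochondrial membrane needed for haem synthesis, showed the largest difference among them. It stood at 28.9 FPKM in P-Enter against 13.4 in WT and 17.3 in L597R (508, 277 and 380 reads). P-Enter was the high library. The difference was -1.06 (residual -1.02), and the read ratio was 0.463 (interval 0.398 to 0.537). TMEM14C lies at chr6:10722915-10731129, and none of its exonic bases overlap another gene's. Its neighbours PAK1IP1, 13133 bases away, and TMEM14B, 16630 bases away, stood at 30.9 and 27.5 FPKM and at 12.5 and 11.96 FPKM. These neighbours did not share the difference of TMEM14C. The other 18 genes of a list for iron and haem ranged only from -0.13 to 0.17, the next lowest being the mitochondrial iron importer SLC25A37 (11.7 and 10.6 FPKM).

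HRAS, a GTPase that binds and recruits RAF kinases, was next to BRAF itself in the pathway. It stood at 16.0 FPKM in P-Enter against 7.94 in WT and 11.3 in L597R (518, 303 and 456 reads). P-Enter was the high library and WT the low one. The difference was -0.93 (residual -0.90), and the read ratio was 0.496 (interval 0.429 to 0.573). HRAS lies at chr11:532242-537287 on the minus strand, with no overlap of exons, and its exons are GC-rich (68.6%). The nearest measured gene on each side did not share the difference. RNH1, 24942 bases away, was at 8.86 and 9.51 FPKM, and RASSF7, 23117 bases away on the other side, at 8.23 and 8.99. Further out, PHRF1, 39199 bases away, was higher in WT, at 3.42 and 4.84 FPKM. PTDSS2, 40843 bases away, was also higher, at 6.08 and 7.85 FPKM. IRF7, 75266 bases away, was lower in WT, at 1.96 and 1.37 FPKM, and the interval of its read ratio held 1 (0.482 to 1.01). In bulk RNA, fewer cells with a transcript and less of it in each cell cannot be told apart, here as for every difference.

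MTCH2, a protein insertase of the outer mitochondrial membrane and receptor for the death protein BID, had the most reads of the 8. It stood at 46.7 FPKM in P-Enter against 24.2 in WT and 24.6 in L597R (1787, 1090 and 1175 reads). The difference was -0.92 (residual -0.95), and the read ratio was 0.518 (interval 0.480 to 0.558). MTCH2 lies at chr11:47617315-47642623. Its neighbour NDUFS3, a core subunit of respiratory complex I under the level limit, had a like pattern at 2.25, 0.510 and 0.428 FPKM (135, 36 and 32 reads). Of the exonic bases of NDUFS3, 19.6% overlap PTPMT1 on its own strand. The next genes out, CELF1 (29.1 and 29.04 FPKM) and FNBP4 (5.73 and 4.99 FPKM), did not share it.

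UBL7, a ubiquitin-like protein, stood at 7.18 FPKM in P-Enter against 3.08 in WT and 4.41 in L597R. With 180 and 91 reads, its ratio of 0.429 had an interval of 0.330 to 0.555. DDX24, a DEAD-box RNA helicase, was at 6.99, 3.84 and 5.42 FPKM. Its 800 and 518 reads gave a ratio of 0.549 (0.491 to 0.614). Both had an intermediate level in L597R. FRG1, a gene of the subtelomere of chromosome 4 with many near-identical copies elsewhere, was at 17.4, 11.1 and 13.8 FPKM with a ratio of 0.639 (0.545 to 0.747), and the counting could divide its reads among those copies. C1orf53, an uncharacterised gene, was at 6.95, 3.56 and 6.81 FPKM, but from only 58, 35 and 71 reads, and its ratio of 0.512 had an interval up to 0.792. The residuals of UBL7, DDX24, FRG1 and C1orf53 were -0.94, -0.72, -0.59 and -0.78, close to their differences of -1.003, -0.72, -0.60 and -0.80.

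RAD17 loads the checkpoint clamp onto damaged DNA. It stood at 6.66 FPKM in P-Enter against 4.07 in WT and 7.79 in L597R, with a difference of -0.60 (residual -0.65) and a read ratio of 0.611 (0.520 to 0.718). RAD17 has overlapping exons over 9.14% of its bases, with AK6 and TAF9. On the same arm of chromosome 5, 91863 bases away, lies CDK7, which phosphorylates cell-cycle kinases and, within TFIIH, RNA polymerase II. CDK7, whose mean of 4.99 FPKM falls just under the limit, was at 8.03 FPKM in P-Enter against 1.96 in WT and 8.23 in L597R (258, 74 and 330 reads). WT alone was low. The difference was -1.61 and the read ratio 0.243 (interval 0.185 to 0.316), further from 1 than that of any of the 9 genes past the rule. The exonic GC content of CDK7 was 42.2%, in a class with a median difference of 0.05, so the GC trend runs the other way there. CCDC125, which lies between CDK7 and RAD17, stood at 2.71, 1.74 and 2.38 FPKM, a difference of -0.44. On the other side of CDK7, MRPS36 (14.0 and 16.0 FPKM), CENPH (29.5 and 33.2 FPKM) and CCNB1 (279 and 264 FPKM) were not lower in that way. So 3 neighbours at chr5:69234795-69414801 shared a lower level in WT, and the L597R level of each was nearer to P-Enter than to WT. The partners of CDK7 did not share it: cyclin H (CCNH) stood at 8.28 and 8.97 FPKM, and MNAT1 at 7.14 and 7.92.

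**Figure D3:**
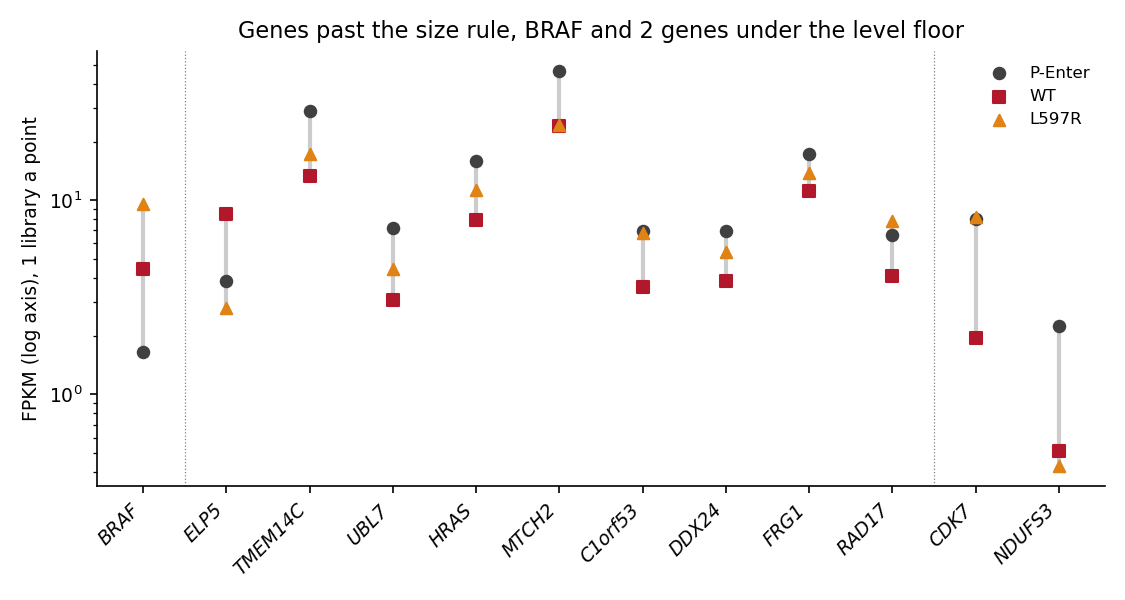
FPKM (y, log axis) in P-Enter (circle), WT (square) and L597R (triangle), 1 library a point, of BRAF, of the 9 genes past 1.5-fold and, on the right, of CDK7 and NDUFS3, which lie under the level limit. Grey bars join the lowest and highest library. WT is the lowest library for TMEM14C, UBL7, HRAS, MTCH2, C1orf53, DDX24, FRG1, RAD17 and CDK7, and the highest for ELP5.

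**Figure D4:**
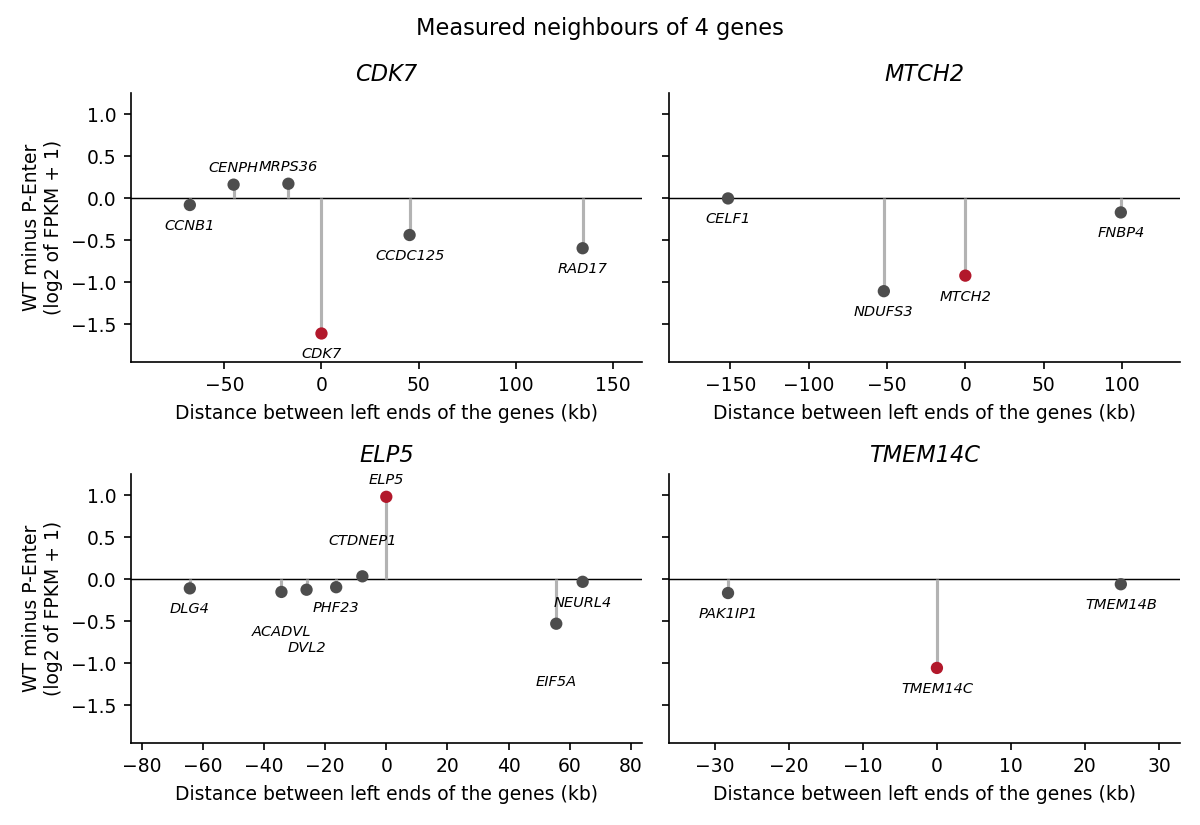
Difference in log2(FPKM + 1), WT minus P-Enter (y), of CDK7, MTCH2, ELP5 and TMEM14C (red) and of their protein-coding neighbours with a mean of at least 1 FPKM (grey), by the distance between the left ends of the genes in kilobases (x). CDK7 has RAD17 and CCDC125, and MTCH2 has NDUFS3, as neighbours with a lower level in WT. ELP5 and TMEM14C stand apart from their next neighbours.

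Just short of 1.5-fold lower were EIF3K at 8.12 FPKM in P-Enter and 5.13 in WT, RRN3 at 7.45 and 4.77, EIF5A at 29.2 and 19.9, and CUTA at 25.7 and 18.4. EIF3K and EIF5A are factors of translation, and RRN3 starts transcription by RNA polymerase I and has near-copies in the genome. The residuals of these genes were -0.52, -0.61, -0.47 and -0.40. The other 36 translation factors did not follow: 18 of 38 were higher in WT, against 48% of all genes, and the median was -0.003. The highest members were EIF5B (16.6 and 20.6 FPKM) and EIF3A (79.5 and 90.7 FPKM). On the higher side, DNAJB9, an ER chaperone of the unfolded protein response, was at 4.12 and 6.09 FPKM, RPS25 at 6.21 and 8.73, HMGN5 at 4.53 and 6.44, and GOLGA5 at 8.47 and 11.7. Of these, HMGN5 is AT-rich, with 35.1% exonic GC, and its difference of 0.43 shrank to a residual of 0.28, while that of DNAJB9, 0.47, stayed at 0.41.

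The kinase chain around BRAF was nearly level. A list of 40 genes from receptors' adaptors to ERK, with regulators and scaffolds, has 28 above the limit, of which 15 were higher and 13 lower in WT, against 48% higher over all 6116 genes. The median was 0.002 and the median residual 0.003. The core of the cascade hardly differed: MAP2K1 was at 18.5 FPKM in both, MAP2K2 at 62.8 and 63.6, and MAPK3 at 21.0 and 20.7. Of the RAS genes, HRAS was low as given, and NRAS was at 84.8 and 98.0 FPKM (residual 0.12). The members furthest above 0 were regulators. RASA1, a GTPase-activating protein that switches RAS off, stood at 11.7 FPKM in P-Enter against 15.6 in WT and 17.7 in L597R, a difference of 0.39 with a residual of 0.37. LAMTOR3, a scaffold that holds MEK1 and ERK1 on endosomes, was at 6.74, 8.89 and 9.46 FPKM, with 0.35 and 0.25. At the low end after HRAS came CDC37, the cochaperone that loads kinases onto HSP90, at 90.9, 82.0 and 87.4 FPKM.

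Transcripts that ERK signalling is known to raise were not higher. Of a list of 14 such outputs 10 were above the limit, and 8 of them were lower in WT. The median was -0.09, the lowest of 55 lists with at least 3 genes, whose medians ran from -0.09 to 0.08, and the median residual was -0.05. Over all genes 52% were lower. None of the 10 had a read ratio interval above 1 and 5 had one below 1, against 16.9% and 14.7% of all genes. SPRY4, an inhibitor of RAS to ERK signalling that the pathway itself induces, stood at 22.7 FPKM in P-Enter against 19.7 in WT and 20.8 in L597R. Its ratio of 0.868 (0.815 to 0.924) was the lowest of the list. ETV5, an ETS factor, was at 10.9, 9.72 and 9.29 FPKM, and FOSL1, an AP-1 subunit, at 266, 245 and 238. All of these were lower in WT than in P-Enter, by under 1.2-fold. The exceptions were DUSP6, the phosphatase of ERK, at 5.48, 6.07 and 5.42 FPKM, and SPRED1 at 5.06, 5.59 and 6.03, and the intervals of both held 1 (0.946 to 1.30 and 0.985 to 1.24). SPRED1 is AT-rich, and its difference of 0.12 left a residual of 0.02.

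Immediate-early and AP-1 genes, 15 above the limit, split 7 higher to 8 lower, against 52% lower over all genes. Their median was -0.02 and their median residual 0.03. MYC stood at 34.5 FPKM in P-Enter and 31.0 in WT, with a ratio of 0.899 (0.846 to 0.954). KLF2 and JUNB were the lowest, at 10.9 and 9.17 FPKM and at 6.62 and 5.65 FPKM. JUND and KLF4 were the highest, at 17.4 and 19.8 FPKM and at 14.2 and 15.4 FPKM.

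Targets of NRF2 had the highest median of the 55 lists. NRF2, encoded by NFE2L2, is the transcription factor that turns on glutathione synthesis, quinone and peroxide reduction and iron storage when its inhibitor KEAP1 is inactivated by oxidants or electrophiles. Of 26 genes listed 19 were above the limit, and 13 of them were higher in WT, against 48% of all genes, with a median of 0.08. Intervals of the read ratio lay above 1 for 10 (16.9% over all genes) and below 1 for 1, PGD (14.7% over all genes). The pattern was not that of the GC trend: the list's median GC content was 52.96%, in a class of genes with a median difference of -0.04, its median residual was 0.09 and 17 of 19 residuals were above 0. The sizes were small, and 1 of the 19 was past 1.2-fold.

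In the supply of glutathione, SLC7A11 stood at 22.3 FPKM in P-Enter against 28.4 in WT and 39.0 in L597R, a ratio of 1.27 (1.21 to 1.33) and a residual of 0.16. GCLM, the modifier subunit of the enzyme that starts glutathione synthesis, was at 23.3, 27.8 and 40.9 FPKM, a ratio of 1.19 (1.12 to 1.27) and a residual of 0.15. WT lay between the other libraries for both genes. TXNRD1, thioredoxin reductase, was at 207, 231 and 284 FPKM with a ratio of 1.12 (1.10 to 1.14). In the handling of haem and iron, HMOX1 was at 193, 209 and 277 FPKM, FTH1 at 109, 123.1 and 131, and FTL at 6003, 6329 and 7065. OSGIN1, an oxidative stress response gene, was at 8.99, 10.5 and 13.9 FPKM. NFE2L2 itself was at 12.9, 14.5 and 19.5 FPKM. Members at the other end were GSR, glutathione reductase, at 24.1, 22.3 and 23.2 FPKM, and PGD at 83.5, 79.1 and 79.1. NQO1, a widely used marker of NRF2 activity, was level at 291 FPKM in P-Enter and 289 in WT, and KEAP1 at 57.7 and 57.2. These comparisons of WT and of L597R share the P-Enter library, so a low or high P-Enter value would enter both.

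The antioxidant response element through which NRF2 acts was searched for as TGACNNNGC on both strands. It was in 4 of the 13 NRF2 promoters in the table (GCLM, ME1, PGD and TXNRD1), in 16.4% of the 5159 promoters and in 13.6% of all 27305. GCLM and TXNRD1 are shown as members with higher levels in WT, with the 250 bases before the start and the match in capitals.
GCLM: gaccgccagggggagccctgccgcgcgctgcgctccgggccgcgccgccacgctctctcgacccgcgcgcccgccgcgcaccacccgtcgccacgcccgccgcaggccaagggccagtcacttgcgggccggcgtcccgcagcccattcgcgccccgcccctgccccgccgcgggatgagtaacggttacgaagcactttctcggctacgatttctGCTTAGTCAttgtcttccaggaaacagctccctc
TXNRD1: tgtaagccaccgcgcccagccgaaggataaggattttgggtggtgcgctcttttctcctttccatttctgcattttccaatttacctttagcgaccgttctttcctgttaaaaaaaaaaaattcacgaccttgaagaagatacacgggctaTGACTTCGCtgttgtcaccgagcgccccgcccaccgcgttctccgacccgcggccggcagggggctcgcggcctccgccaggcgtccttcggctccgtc
The windows are chr1:93909431-93909680 (minus strand) and chr12:104215529-104215778 (plus strand). PGD, which also holds the match, was lower in WT, so a match did not go with one direction in these 4 genes.

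Ribosomal protein genes were slightly lower as a body. Of 76 cytosolic ribosomal protein genes 61 were lower in WT, against 52% over all genes, and the intervals of 38 lay below 1 (14.7% over all genes) and of 2 above (16.9%). The median was -0.04 and the median residual -0.02, with 25 residuals above 0 and 51 below. Over all genes the share lower varied with level. In the class with the highest mean FPKM, from 64.4 upward, 30.2% of genes were higher in WT and the median was -0.03. The shares of intervals were not set against genes of like depth. RPS18 was furthest below, at 510 FPKM in P-Enter against 427 in WT and 395 in L597R, a ratio of 0.838 (0.817 to 0.859). RPS25 was furthest above, from 122 and 202 reads, and its level of 1.39 FPKM in L597R was below both others. RPS25 had overlapping exons over 20.8% of its bases. Many ribosomal protein genes have processed copies in the genome, which the counting could divide reads with. The 68 mitochondrial ribosomal protein genes split 24 higher to 44 lower, against 52% lower over all genes, with a median of -0.04 and a median residual of -0.02. The lowest of them were MRPL58 (28.6 and 23.9 FPKM) and MRPS21 (31.8 and 27.0 FPKM), and the highest MRPL1 (15.8 and 18.7 FPKM) and MRPS9 (10.98 and 12.9 FPKM).

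Spliceosomal Sm and LSm proteins, the ring-forming proteins of the small nuclear RNPs and of mRNA decay, with snRNP-specific partners, were lower in 18 of 27, against 52% of all genes. The median was -0.07 and the median residual -0.06, and level limits of 1 and of 20 FPKM both gave a median of -0.04. LSM14A, a protein of processing bodies, stood at 9.23 FPKM in P-Enter against 6.50 in WT and 5.44 in L597R, with a ratio of 0.703 (0.620 to 0.797) and a residual of -0.51. LSM1, of the cytoplasmic decay ring, was at 14.3, 11.7 and 11.2 FPKM. SNRPB2 and LSM5 were the highest, at 27.0 and 30.3 FPKM and at 12.2 and 13.7 FPKM.

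Genes of mitosis were mostly higher, but their median went to near 0 in the regression. Of 44 genes of G2 and mitosis 28 were higher in WT, against 48% of all genes. Intervals lay above 1 for 18 (16.9% over all genes) and below 1 for 6, a share near the 14.7% over all genes. The median of 0.04 became a median residual of 0.01, a level limit of 20 FPKM gave 0.003, and the list's median GC was 41.4%. KIF14, a kinesin of cytokinesis, stood at 7.49 FPKM in P-Enter against 9.87 in WT and 11.7 in L597R. Its difference of 0.36 left a residual of 0.25. CKAP2, a microtubule-associated protein, was at 20.9, 25.5 and 31.3 FPKM, with 0.27 and 0.14. The lowest were KIF2C (52.0 and 46.6 FPKM) and PLK1 (51.7 and 47.8 FPKM), both with residuals below 0. The 18 kinesins, some of which, such as KIF14 and KIF2C, are also in that list, had a median of 0.06 and a median residual of 0.05, but a level limit of 20 FPKM gave a median of -0.0004 and one of 1 FPKM a median of 0.03. Of 43 genes of G1/S and replication 14 were higher and 29 lower, against 52% lower over all genes. Their median was -0.02 and their median residual -0.02, with 20 residuals above 0 and 23 below.

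Respiratory genes were near level. Of the 13 mitochondrially encoded mRNAs 10 were higher, against 48% of all genes. Their median of 0.05 became 0.03 after a smooth curve in GC content alone and 0.001 as a residual of the regression. They ran from MT-CO2 (2271 and 2180 FPKM) to MT-ATP8 (7.63 and 8.63 FPKM, from 21 and 28 reads). Of the nuclear genes of complex I, 9 of 23 were higher, against 48% of all genes, and the median was -0.02. NDUFA2, a small subunit, was highest at 6.84 and 8.27 FPKM, and NDUFB3 lowest at 30.1 and 27.1. UQCR10 and COX8A, small subunits of complexes III and IV, were past 1.2-fold higher, at 5.40 and 7.46 FPKM and at 11.3 and 14.9 FPKM. They rest on 70 and 114 reads and on 74 and 115, and the interval of COX8A held 1 (0.976 to 1.79). UQCRC2, of complex III, was past 1.2-fold lower, at 6.43 and 5.08 FPKM from 392 and 365 reads. Its read ratio was 0.790 (0.683 to 0.914) and its residual -0.35.

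Glycolytic genes were lower in 13 of 17, against 52% of all genes, with 9 intervals below 1 (14.7% over all genes) and none above (16.9%). Their median of -0.03 became 0.01 as a residual, and 7 of the 17 residuals were below 0. LDHA, which reduces pyruvate to lactate, was the lowest. It stood at 53.3 FPKM in P-Enter against 43.3 in WT and 43.0 in L597R, with a ratio of 0.813 (0.779 to 0.849) and a residual of -0.31. PFKM was at 17.8, 15.6 and 14.0 FPKM. At the other end, HK1 was at 45.9 and 47.8 FPKM and PFKFB3 at 18.9 and 19.3.

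**Figure D5:**
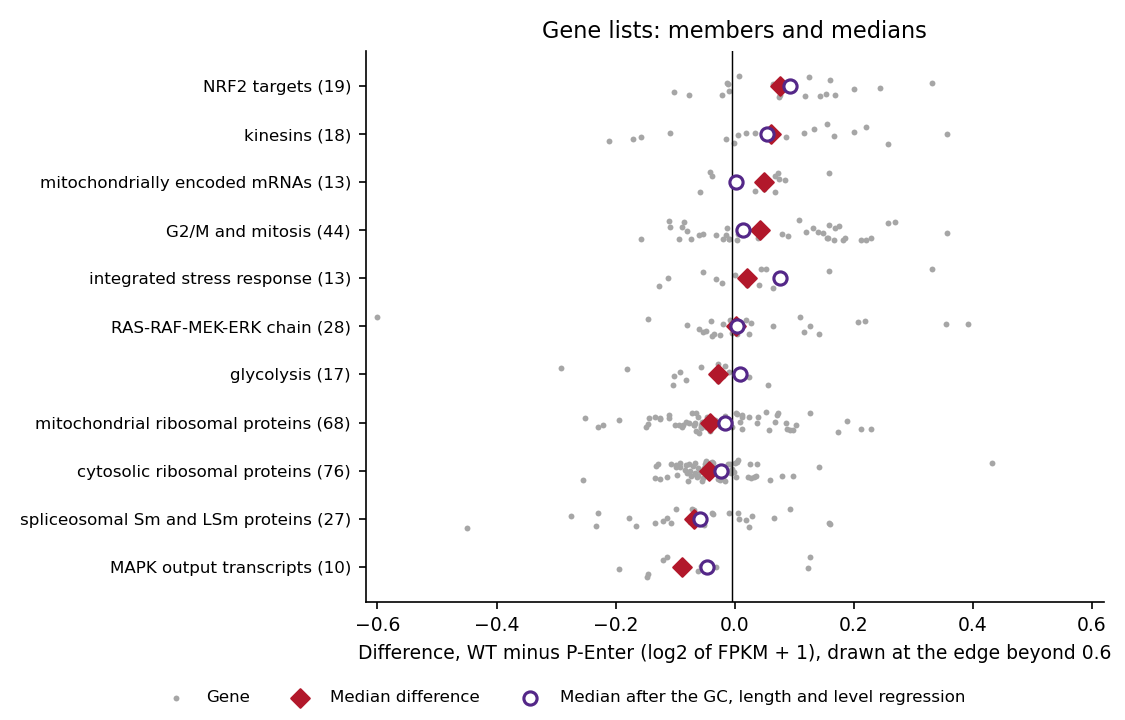
Differences in log2(FPKM + 1), WT minus P-Enter (x), of the genes of 11 lists (grey points, spread vertically for view; the number of genes is beside each name), with the median of each list (diamond) and its median residual after the regression on GC content, length and level (open circle). The vertical line is the median of all 6116 genes. NRF2 targets and kinesins keep their medians in the regression (the kinesins not with a level limit of 20 FPKM, which is not drawn), while those of mitosis, glycolysis and the mitochondrially encoded mRNAs go to near 0.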

How the data were processed

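RNA was extracted with Trizol and made into TruSeq stranded mRNA libraries, per the labels' protocols. Trimmomatic, HISAT2, Cufflinks and HTSeq were used on hg38 (GRCh38), per the submitters' processing notes, and their versions, the annotation release and the strand setting are not given in the sources used here. Per the file headers, the authors deposited FPKM values by Ensembl ID, 1 library a file and 3 in all. Gene types, exon length, GC content and overlaps came from GENCODE 29 (22807 of 23379 IDs matched), symbols from a name table (23330), and promoters from RefSeq GRCh38.p14 (5159 of 6116 genes).

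Differences are log2(FPKM + 1), with a pseudocount of 1, in genes with a mean of at least 5 FPKM. Whole reads came from solving each gene's FPKM in 3 libraries for 1 length, within 1e-05 reads: 22600 genes (96.7%) came out whole, 49.1% of them at the annotated length. The recovered reads summed to 100.4% of the total in each library. Some genes may therefore have been given too many reads, and so too narrow an interval, and which ones was not determined. Read ratios have 95% Clopper-Pearson intervals. No test and no count model was run, since each group is 1 library. The genes, lists (994 names in lists written by name, 56 lists in all) and size rule were chosen with earlier results of these data known. Named genes are BRAF, those past 1.5-fold, the 2 highest and 2 lowest of each list described, those next to the level limit, and the nearest neighbours of genes past the rule with a mean of at least 1 FPKM; CDK7, the genes just short of the rule and others of a pathway were added after their values were seen. Some genes that this rule takes in are not reported here. Scripts were tested on simulated data. Python 3.11.15, numpy 2.4.6, pandas 2.3.3, scipy 1.17.1, statsmodels 0.14.6 and matplotlib 3.10.9 were used.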

Additional observations from a re-analysis of the deposited data

How the results depend on the processing

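The count past 1.5-fold, 1 higher and 8 lower, moved with the settings as follows. A pseudocount of 5 gave 4 lower. A level limit of 1 FPKM gave 8 higher and 29 lower, one of 20 FPKM gave 0 and 2, and no limit gave 12 and 37. A rule of 2-fold gave 0 and 2, and one of 1.2-fold 114 and 79. Asking that the read interval lie wholly beyond 1.5-fold gave 5 lower. Leaving out genes with overlapping exons gave 0 higher, since ELP5 is one. Rescaling by the median ratio, the regression, a smooth curve in GC content, a pseudocount of 0.1 and leaving out mitochondrially encoded genes kept both counts within 1.5 times.

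The GC correlation of -0.48 was -0.39 at 20 FPKM and -0.37 with no limit. Lists at least 0.05 from the median of all genes numbered 8, but 4 with a pseudocount of 5 and 5 at 20 FPKM. The BRAF difference of 1.03 was 1.36 with a pseudocount of 0.1, 0.50 with one of 5 and 1.42 as the log2 read ratio. The BRAF shifts follow from the arithmetic, since a larger pseudocount shrinks the difference between low FPKM values. The cause of the other shifts was not tested. Of 432 list medians under 8 settings, 57 took the other sign, in 27 lists: 16 in the regression, 17 after the smooth GC curve, 9 at 20 FPKM, 8 at 1 FPKM, 5 on rescaling, and 1 each with a pseudocount of 5 and with read ratios. Among the lists furthest from the median of all genes, the CDK-activating kinase and TFIIH list went from 0.07 to -0.01 in the regression. Its 6 genes do not include CDK7, which is under the level limit. The kinesins went from 0.06 to -0.0004 at 20 FPKM. BRAF and the GC correlation kept their signs. No paired analysis was possible because each group has 1 library and no replicate numbers are shared, and for the same reason no library could be left out. Depth limits the genes with few reads most, among them C1orf53 and COX8A.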
